A study of Homo sapiens with 9 samples.

Results

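The nuclear subunits of the respiratory chain and of ATP synthase are the proteins of complexes I to V whose genes lie outside the mitochondrial genome. They were taken as every protein-coding gene off the mitochondrial chromosome whose symbol begins as a subunit name of these complexes does: NDUF followed by A, B, C, S or V and a digit; SDHA, SDHB, SDHC or SDHD; UQCR; COX4 to COX8; or ATP5. The rule found 90 of the 58336 genes in the deposited tables. By symbol, 39 belonged to complex I, 4 to complex II, 9 to complex III, 17 to complex IV and 21 to complex V. NDUFA4 is counted here under complex I as its symbol says, although the protein is known to sit in complex IV. The rule also takes in genes that are not structural subunits: the ATPase inhibitor ATP5IF1, the coupling factor B-like gene ATP5S, and the readthrough genes NDUFC2-KCTD14 and ATP5MF-PTCD1. It leaves out NDUFAB1 and CYC1, which do belong to complexes I and III.

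Complexes I and II pass electrons from NADH and succinate to ubiquinone, complex III passes them on to cytochrome c, and complex IV hands them to oxygen. Complexes I, III and IV pump protons across the inner mitochondrial membrane, and complex V, ATP synthase, uses the return of the protons to make ATP. Complex II is encoded by nuclear genes alone, whereas the other complexes join nuclear subunits to subunits made inside the mitochondrion. In photodynamic treatment with aminolevulinic acid (ALA), cells turn ALA into protoporphyrin IX in mitochondria, and light then excites it.

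The study cultured HaCaT cells, an immortalized line of human keratinocytes, and describes 9 samples in 3 groups of RNA sequencing. The groups were untreated cells, and cells given low-dose ALA photodynamic treatment (0.5 mmol/L, light of 635 ± 5 nm, 3 J/cm2) and kept for 12 h or for 48 h afterwards. In the deposited tables only the columns Nc1, Nc2 and Nc3 could be tied to a group, untreated control, and this is a reading of the stem Nc that the labels do not spell out. The values below therefore describe 3 libraries of untreated cells, and no treated group was compared with them. All share 1 cell line, and the labels do not say whether the 3 samples came from separate cultures, so the spread may be technical.

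Nc1 had a total of 16989712 counts, Nc2 of 16354678 and Nc3 of 16702425. Of the keratinocyte markers, KRT5 had 7200, 5929 and 7269 counts, and TP63, ITGB4 and COL17A1 were detected too, but KRT14 had only 9, 8 and 15. Markers of red cells (HBB, HBA1 and HBA2) summed to 7336 and 7457 counts in Nc1 and Nc2 and to 3 in Nc3. Markers of leukocytes (PTPRC, LYZ and CSF3R) summed to 197, 151 and 12 counts. Nc1 and Nc2 thus carried transcripts of blood cells that Nc3 almost lacked.

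Of the 90 genes, 80 reached 10 counts or more in every library, the rule used here for a detected gene. The same rule was met by 57.1% of the 19883 protein-coding genes. All 4 genes of complex II and all 9 of complex III were detected, against 36 of 39 in complex I, 12 of 17 in complex IV and 19 of 21 in complex V. Levels are given as FPKM, the authors' counts scaled by gene length and by a constant of each library. That constant was not the total of the library's counts. Levels in FPKM allow genes to be compared within a library. Detected members ran from 0.220 FPKM for COX6B2 to 882 FPKM for COX8A, with a median of 57.9 FPKM.

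The typical gene of complex IV was the most abundant. The median over detected genes was 135 FPKM in complex IV, 62.9 in complex V, 50.6 in complex III, 36.3 in complex I and 27.4 in complex II. In Nc1, Nc2 and Nc3 the median of complex IV was 103, 166 and 136 FPKM, and that of complex I was 30.7, 40.9 and 35.1 FPKM. These ranges did not overlap. Complex V had medians of 51.8, 70.0 and 63.4 FPKM, and complex III of 44.0, 59.9 and 48.0 FPKM, and these did overlap.

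The order of the complexes depends in part on gene length. The deposited tables divide by the length of all annotated exons together, which for these genes is often several times that of the transcript. When the counts were divided instead by the length of 1 reference transcript per gene, the medians on the FPKM scale were 422 for complex IV, 186 for V, 106 for I, 73.4 for II and 72.5 for III. When they were divided by coding length alone, they were 1116.9 for IV, 425 for V, 261 for III, 201 for II and 168 for I. Complex IV came first and complex V next under all 3 lengths, while complexes I, II and III changed places.

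With the table's length, genes of the mitochondrial genome stood above all nuclear members. Per coding kilobase the most abundant nuclear ones, such as COX7C at 2629.2, reached the lowest of the mitochondrial levels. Its 13 protein-coding genes ranged from 2301.2 FPKM (MT-ND6) to 13917.0 FPKM (MT-CO1). Their medians were 2851.3 FPKM for the 7 genes of complex I and 13058.1 FPKM for the 3 of complex IV. Complex IV was thus the more abundant of this pair in its mitochondrial genes as in its nuclear ones.

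**Figure D1:**
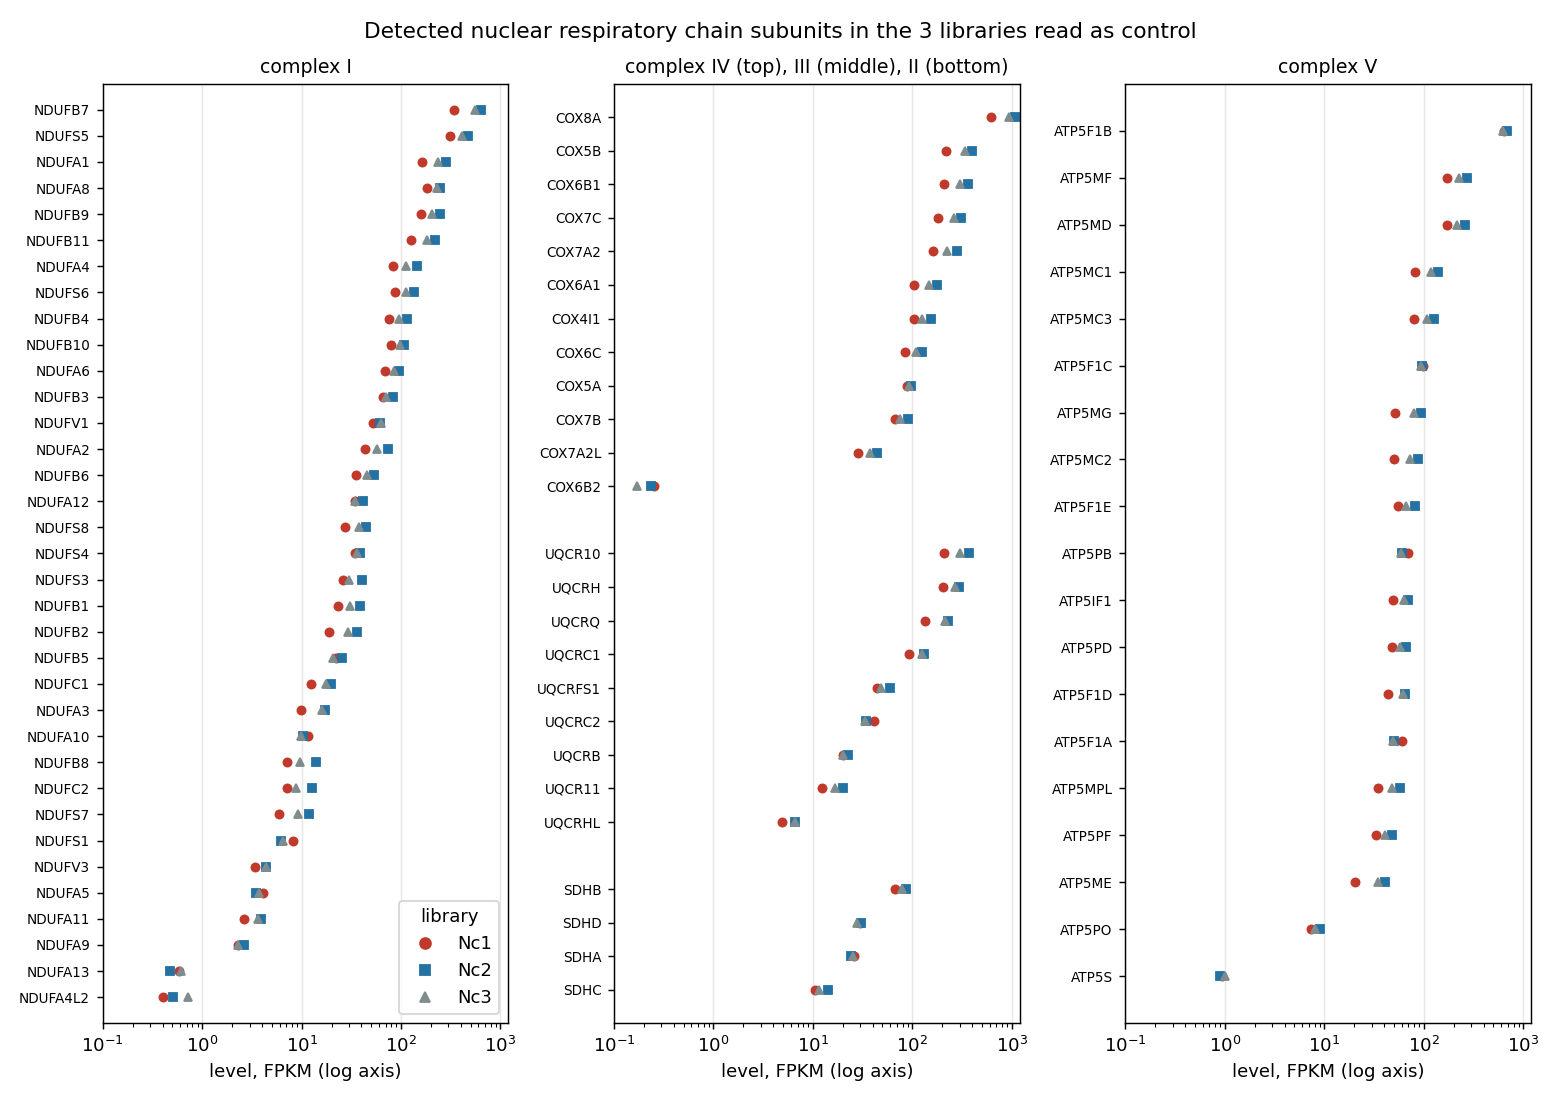
Level of each detected subunit gene reported here (FPKM, log axis) in Nc1, Nc2 and Nc3, one symbol per library, ordered within a complex by the mean. Levels ran from 0.220 FPKM for COX6B2 to 882 FPKM for COX8A, and for most genes the symbol of Nc1 lies to the left and that of Nc2 to the right.

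In complex I, the core subunits carry the flavin, the iron-sulfur clusters and the quinone site, and the many accessory subunits surround them. NDUFV1, which binds NADH and the flavin, stood at 52.2, 61.9 and 63.5 FPKM in Nc1, Nc2 and Nc3. NDUFS1, the large iron-sulfur subunit of the same arm, stood at 8.17, 6.16 and 6.55 FPKM. The lowest library of NDUFV1 was above every library of NDUFS1, with a ratio of 8.71 ± 2.02 (SD, n = 3). The ratio was 4.62 ± 1.07 per coding kilobase and 21.8 ± 5.06 per kilobase of the reference transcript, so its direction held under all 3 lengths while its size moved.

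NDUFS7, an iron-sulfur protein near the quinone site, stood at 5.91, 11.8 and 9.28 FPKM, with Nc1 well below the others. NDUFS3 and NDUFS8, the latter also an iron-sulfur protein, stood at 32.2 ± 7.14 and 36.3 ± 8.37 FPKM (SD, n = 3), within each other's spread. The 6 detected genes of the 7 core ones had a median of 34.2 FPKM. The 30 other detected genes counted under complex I, NDUFA4 and NDUFA4L2 among them, had one of 36.5 FPKM.

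NDUFV2, the core subunit with the iron-sulfur cluster next to the flavin, was the exception. It had 11, 8 and 9 counts, or 0.228, 0.190 and 0.198 FPKM, and was not detected by the rule (ENSG00000178127, chr18:9102630-9134345, plus strand, build GRCh38). NDUFA7, an accessory subunit, also missed it, with 6, 17 and 7 counts (chr19:8308768-8321396, minus strand). The readthrough NDUFC2-KCTD14 had no count in any library. At the other end, with the table's length, stood the accessory subunit NDUFB7 (chr19:14566078-14572062, minus strand), at 343, 643 and 557 FPKM. NDUFS5 followed with 308, 473 and 410.3 FPKM, and the ranges of these genes overlapped. Per kilobase of the reference transcript NDUFB9 came first (749, against 514 for NDUFB7), and per coding kilobase NDUFA4 (1654.1, against 664).

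NDUFA4 and its homologue NDUFA4L2 form one of the isoform pairs of the family. NDUFA4 stood at 82.1, 144 and 113 FPKM. NDUFA4L2, known to be induced by low oxygen, had 20, 22 and 34 counts (0.400, 0.505 and 0.722 FPKM) and was the lowest detected gene under complex I, level with NDUFA13 within their spread. The ratio of NDUFA4 to NDUFA4L2 was 215 ± 64.2, 151 ± 45.0 per kilobase of the reference transcript and 293 ± 87.4 per coding kilobase (SD, n = 3).

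Complex II, succinate dehydrogenase, has a flavoprotein (SDHA), an iron-sulfur protein (SDHB) and a pair of membrane anchors (SDHC and SDHD). With the table's length SDHB was the most abundant, at 66.8, 86.9 and 77.9 FPKM (chr1:17018722-17054170, minus strand). SDHD followed with 29.8, 30.6 and 28.0 FPKM and SDHA with 26.0, 24.3 and 25.5 FPKM. SDHC stood at 10.4, 14.2 and 11.6 FPKM (chr1:161314257-161375340, plus strand). In every library the order with the table's length was SDHB, SDHD, SDHA and SDHC. Per kilobase of the reference transcript the mean of SDHA (88.7) was above that of SDHD (58.1). Per coding kilobase it was below (106 against 175).

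The place of SDHC rests on its annotated length. Its exons add up to 14160 bases and its reference transcript to 13566, of which 507 are coding. The ratio of SDHB to SDHC was 6.41 ± 0.288 with the table's length, 13.1 ± 0.590 per kilobase of the reference transcript and 0.672 ± 0.0302 per coding kilobase (SD, n = 3). Which of the pair was higher therefore turned with the length used. SDHA had 3877, 3164 and 3592 counts, and SDHC 2628, 3120 and 2763.

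Complex III holds the Rieske iron-sulfur protein UQCRFS1, the core proteins UQCRC1 and UQCRC2, and small subunits around cytochrome b. UQCRFS1 stood at 44.0, 59.9 and 48.0 FPKM. UQCRC1 stood at 91.8, 130.3 and 126 FPKM and UQCRC2 at 41.6, 34.1 and 33.3 FPKM. Against the other libraries Nc1 was low in UQCRC1 and high in UQCRC2, so their ratio was 2.20 in Nc1 but 3.82 in Nc2 and 3.79 in Nc3. Its mean was 3.27 ± 0.924 with the table's length and 1.92 ± 0.541 per coding kilobase (SD, n = 3). With the table's length the small subunit UQCR10 was the most abundant, at 206, 369 and 299 FPKM (chr22:29767369-29770413, plus strand), and UQCRH and UQCRQ followed at 255 ± 47.9 and 192 ± 50.8 FPKM (SD, n = 3). Per kilobase of the reference transcript UQCRH (595) and UQCRQ (483) stood above UQCR10 (309.9). CYC1, the cytochrome of the complex that the rule leaves out, stood at 225, 373 and 335 FPKM.

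UQCRHL, the lowest gene of complex III, is a copy of the hinge protein gene UQCRH without introns, elsewhere on chromosome 1. Their coding sequences are shown because reads of one could be taken for the other. From GENCODE release 29 and without the stop codon, each is 273 bases long, and capitals mark the 4 bases at which they differ (98.5% identity, 3 of 91 residues changed).
UQCRH: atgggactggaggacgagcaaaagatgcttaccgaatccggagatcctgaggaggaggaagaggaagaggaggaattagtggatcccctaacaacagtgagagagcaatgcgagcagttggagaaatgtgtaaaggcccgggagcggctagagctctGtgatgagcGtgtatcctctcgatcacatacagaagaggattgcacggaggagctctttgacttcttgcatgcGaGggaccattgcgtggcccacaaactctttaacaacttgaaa
UQCRHL: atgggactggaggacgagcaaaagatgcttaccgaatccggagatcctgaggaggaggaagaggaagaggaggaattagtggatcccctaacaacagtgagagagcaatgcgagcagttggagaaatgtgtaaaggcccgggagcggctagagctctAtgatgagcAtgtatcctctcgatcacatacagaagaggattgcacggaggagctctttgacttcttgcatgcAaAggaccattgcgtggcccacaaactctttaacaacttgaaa
UQCRH (chr1:46303631-46316776, plus strand) had 5059, 6445 and 6338 counts, and UQCRHL (chr1:15807169-15809348, minus strand) 189, 225 and 243. The ratio of their FPKM was 41.4, 44.4 and 40.4, or 42.1 ± 2.05 (SD, n = 3). It was 98.0 ± 4.79 per kilobase of the reference transcript and 27.2 ± 1.33 per coding kilobase. The sources used here do not say how reads matching both genes were assigned, and the level of UQCRHL is uncertain.

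Complex IV, cytochrome c oxidase, has tissue forms of several subunits, and the libraries held the widely expressed form of each. COX4I1 stood at 103, 154 and 126 FPKM, and its lung form COX4I2 had no count. The same held for COX8A, COX7B and COX6A1 against COX8C, COX7B2 and COX6A2: the latter 3 had no count in any library. COX6A1 stood at 103, 178 and 146 FPKM, and COX7B at 67.4, 89.8 and 74.8 FPKM. A count of 3, the limit a count of 0 allows, would be 0.243, 0.279 and 0.258 FPKM for COX4I2, and 0.312, 0.357 and 0.331 FPKM for COX6A2, the form of heart and skeletal muscle. These limits cover counting error only.

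COX7A1, also a muscle form, had 0, 0 and 2 counts, whereas COX7A2 stood at 163, 280.2 and 224 FPKM. COX7A2L, which takes part in joining complexes III and IV into supercomplexes, stood at 28.4, 44.3 and 37.4 FPKM. The ratio of COX7A2 to COX7A2L was 6.01 ± 0.305 with the table's length, 2.97 ± 0.151 per kilobase of the reference transcript and 2.04 ± 0.104 per coding kilobase (SD, n = 3). COX6B1 stood at 210.0, 364 and 298 FPKM, against 17, 14 and 11 counts (0.250, 0.236 and 0.172 FPKM) for the testis form COX6B2, the lowest detected gene of all with the length of the table (chr19:55349306-55354814, minus strand). Markers of muscle and heart (MYH7, MYL2, CKM and ACTA1) had 0, 2 and 1 counts in all.

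COX8A was the most abundant gene of the family with the table's length, at 619, 1081.2 and 945 FPKM (ENSG00000176340, chr11:63974607-63976543, plus strand). COX5B, which binds zinc, stood at 217, 398 and 335 FPKM, and COX5A at 87.9, 95.9 and 92.4 FPKM. COX5A moved little between libraries that differed widely in COX5B.

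Complex V is built of the catalytic F1 head, a membrane part with the rotating ring of c subunits, and a stalk. ATP5F1B, the catalytic beta subunit, was the most abundant with the table's length, at 646, 689 and 625 FPKM (ENSG00000110955, chr12:56638175-56646068, minus strand). ATP5F1A, the alpha subunit, stood at 60.7, 50.8 and 48.6 FPKM, and ATP5F1C, the gamma subunit, at 98.6, 96.1 and 93.4 FPKM. The ratio of ATP5F1B to ATP5F1A was 12.4 ± 1.53 with the table's length, 8.32 ± 1.03 per kilobase of the reference transcript and 2.75 ± 0.339 per coding kilobase (SD, n = 3). The F1 head holds alpha and beta in equal number. ATP5F1A has 10908 bases of annotated exons, of which 1659 are coding in the reference transcript, against 2322 and 1587 for ATP5F1B.

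ATP5IF1, the inhibitor that holds the F1 head when the proton gradient falls, stood at 48.9, 70.0 and 63.4 FPKM. ATP5F1B exceeded it by 11 ± 1.94 times with the table's length, and by 2.29 ± 0.405 times per coding kilobase (SD, n = 3). ATP5S had 187, 158 and 192 counts and was the lowest detected gene of the complex, at 0.948 ± 0.0581 FPKM (SD, n = 3). The readthrough ATP5MF-PTCD1 had 2, 0 and 1 counts, and ATP5MGL, a gene resembling ATP5MG, had none.

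**Figure D2:**
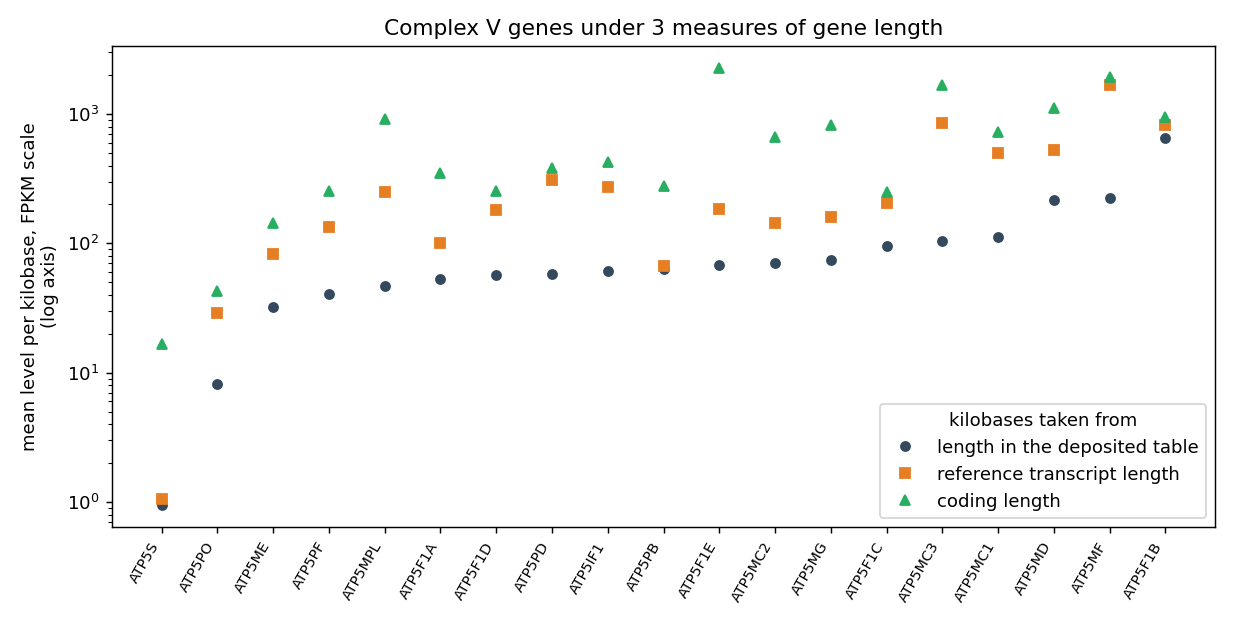
Mean level of each detected gene of complex V over the 3 libraries (log axis), when the same counts are divided by the table's length, the reference transcript length or the coding length. ATP5F1B is highest with the table's length at 653, but under coding length ATP5F1E comes first with 2278.9 and ATP5F1B stands at 956.

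The c ring is made from 3 genes, ATP5MC1, ATP5MC2 and ATP5MC3, whose precursors differ but whose mature protein is one. The last 225 coding bases are shown because they encode the same 75 residues in all 3 genes. Capitals mark the 52 positions at which at least 1 of the 3 differs; ATP5MC1 and ATP5MC2 differ at 25, and ATP5MC3 differs from each of them at 42.
ATP5MC1: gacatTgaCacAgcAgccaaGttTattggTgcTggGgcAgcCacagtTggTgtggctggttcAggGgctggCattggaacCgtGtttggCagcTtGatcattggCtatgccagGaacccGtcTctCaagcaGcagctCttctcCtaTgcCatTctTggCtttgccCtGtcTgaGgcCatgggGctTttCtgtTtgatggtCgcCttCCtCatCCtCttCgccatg
ATP5MC2: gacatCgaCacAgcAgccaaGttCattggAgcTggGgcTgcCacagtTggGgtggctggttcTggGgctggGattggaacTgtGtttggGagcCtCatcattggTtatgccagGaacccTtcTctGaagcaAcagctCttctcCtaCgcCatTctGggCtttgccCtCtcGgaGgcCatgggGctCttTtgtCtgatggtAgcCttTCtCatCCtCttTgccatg
ATP5MC3: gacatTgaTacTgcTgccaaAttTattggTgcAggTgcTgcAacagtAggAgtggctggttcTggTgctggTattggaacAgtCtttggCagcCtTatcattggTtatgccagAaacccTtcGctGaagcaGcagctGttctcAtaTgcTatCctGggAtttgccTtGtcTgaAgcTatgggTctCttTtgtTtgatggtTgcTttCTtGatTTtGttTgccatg
ATP5MC1 (chr17:48892765-48895871, plus strand) stood at 81.3, 140.4 and 119 FPKM and ATP5MC2 (chr12:53632726-53677408, minus strand) at 50.2, 87.3 and 72.9 FPKM. Their ratio was 1.62, 1.61 and 1.63 in Nc1, Nc2 and Nc3, although both genes were lowest in Nc1 and highest in Nc2; its size was 3.46 ± 0.0200 per kilobase of the reference transcript and 1.10 ± 0.00636 per coding kilobase (SD, n = 3). ATP5MC3 (chr2:175176258-175184607, minus strand) stood at 80.5, 127 and 107 FPKM. Its ratio to ATP5MC1 was 0.934 ± 0.0484 with the table's length but 2.32 ± 0.120 per coding kilobase (SD, n = 3). ATP5MC3 had 9708, 13411 and 12194 counts, the most of the 3 genes in every library.

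The libraries did not agree on the level of most members. With TMM library sizes, each gene was tested by chi-square for a constant rate across Nc1, Nc2 and Nc3, with Benjamini-Hochberg adjustment at 5% over all genes tested. By this test, 73 of 81 members tested varied beyond counting noise. Of all 13290 genes tested, 56.7% did so. The test calls genes with more counts more readily, and these shares were not matched for count. The median coefficient of variation was 22.1% over the members tested and 13.4% over all genes tested. This test compares these libraries, not conditions.

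The members mostly varied the same way. Of the 73 called, 67 were lowest in Nc1 and 67 were highest in Nc2. Of the 7536 called among all genes, 47.2% were lowest in Nc1 and 39.6% highest in Nc2. As shares of all genes tested, called or not, these were 26.8% and 22.5%, to be read against 67 of the 81 members tested. Over the 80 detected members, the median difference of Nc1 from the mean of the other libraries was -0.53 on the log2 scale of counts per 1000000 (CPM) with TMM scaling, that of Nc2 was 0.43 and that of Nc3 was 0.05. The medians over all genes tested were 0.01, -0.00 and -0.01. Summed over the family, the members made up 14479.7, 18443.0 and 16915.7 CPM in Nc1, Nc2 and Nc3.

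Complexes I, III, IV and V took this direction, and complex II less clearly. The median difference of Nc1 was -0.64 in complex IV, -0.55 in I, -0.54 in III, -0.51 in V and -0.20 in II (log2). In complex IV, 11 of 12 detected genes were lowest in Nc1, in complex III 8 of 9, in complex I 31 of 36, in complex V 16 of 19 and in complex II 2 of 4. Of all genes tested, 41.2% were lowest in Nc1, and complex II was near that share. Whether the complexes differed in this was not tested. The largest difference was that of ATP5ME, a small membrane subunit, with 343, 593 and 550 counts (18.7, 38.9 and 33.1 CPM) and a log2 difference of -0.94. MYL5 on the opposite strand overlaps 49.9% of its reference transcript and had 49, 64 and 94 counts. Without a stated strand setting, reads of the pair in the shared part cannot be told apart. NDUFS7 followed at -0.90 and NDUFB7 at -0.87.

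**Figure D3:**
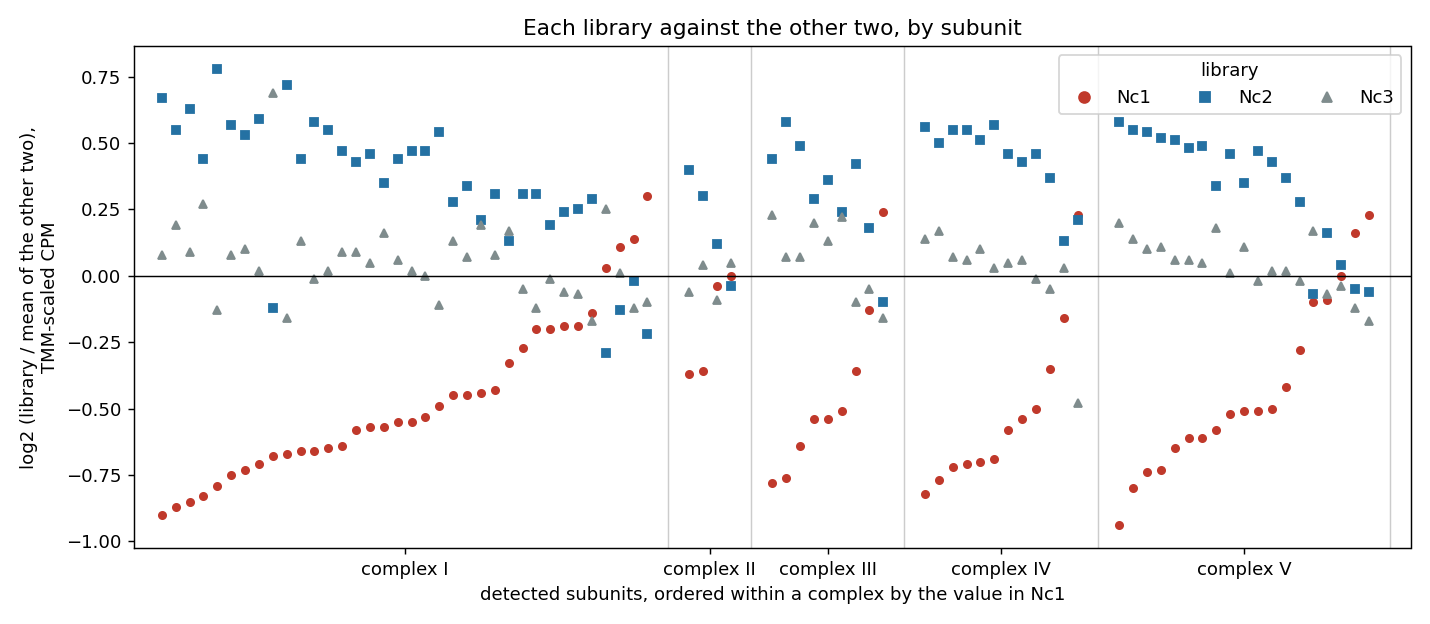
Log2 ratio of each library to the mean of the other two for every detected subunit gene, from TMM-scaled CPM, grouped by complex and ordered by the value in Nc1. Values of Nc1 are below 0 for most genes (median -0.53), those of Nc2 above 0 (median 0.43) and those of Nc3 near 0 (median 0.05).

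Some members, large core subunits among them, went the other way, and their number depended on the scaling. With TMM, the 8 members above 0 in Nc1 were NDUFS1 (0.30), UQCRC2 (0.24), COX6B2 (0.23), ATP5F1A (0.23), ATP5PB (0.16), NDUFA10 (0.14), NDUFA5 (0.11) and NDUFA13 (0.03). With DESeq2 size factors 10 members were above 0, and with library totals 16. NDUFS1 had 97.3, 76.9 and 81.2 CPM, and its counts varied beyond counting noise (adjusted chi-square p = 5.02e-10). Of the 8 above 0 with TMM, those called and highest in Nc1 were NDUFS1, UQCRC2, ATP5F1A, ATP5PB and NDUFA10, 5 in all. Of all genes tested, 25.7% were called and highest in Nc1.

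A few members were steady with TMM scaling. ATP5F1C had 223, 227 and 219 CPM, a coefficient of variation of 1.80% (adjusted chi-square p = 0.392). SDHA had 212, 207 and 216 CPM, one of 2.09% (adjusted chi-square p = 0.298). Their steadiness rests on that scaling. ATP5F1C had 4081, 3469 and 3644 counts and SDHA 3877, 3164 and 3592, so by library totals both were highest in Nc1. The other members that were tested and not called were SDHD, NDUFA5, ATP5S, NDUFA4L2, NDUFA13 and COX6B2. The last 3 had at most 34 counts in any library, and so little power to show a difference.

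The difference of Nc1 went with transcript length and base composition. Over the 80 detected members its Spearman correlation with reference transcript length was 0.45 and with GC content -0.41; all points come from the same 3 libraries, and length and GC content were not separated. The 40 members with transcripts of at most the median of 880.0 bases had a median log2 difference of -0.61, and 39 of them were lowest in Nc1. The 40 longer ones had a median of -0.36, and 29 were lowest in Nc1. Of the 8 members above 0 with TMM scaling, 7 were in the longer group. The part of length or of GC content in the difference was not tested, and neither was that of the blood cell transcripts, which were high in Nc1 and Nc2 alike.

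**Figure D4:**
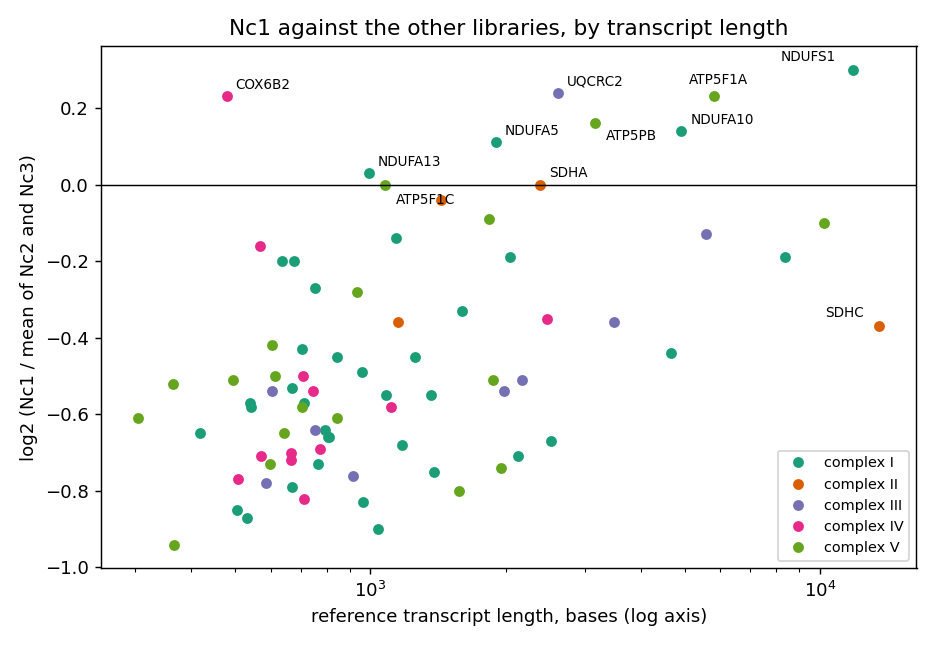
Log2 ratio of Nc1 to the mean of Nc2 and Nc3 (TMM-scaled CPM) against reference transcript length (log axis) for the 80 detected subunit genes, coloured by complex. Short transcripts lie mostly below -0.4, while 7 of the 8 genes above 0 have transcripts longer than 880.0 bases.

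With TMM scaling, other genes of mitochondrial respiration took this direction in part. The 13 genes of the mitochondrial genome were highest in Nc2 in all 13 cases and lowest in Nc1 in 11. Their median difference of Nc1 was -0.29. These counts rest on that scaling. MT-CO2 had 110989, 101298 and 96141 counts, so by library totals it was highest in Nc1. MT-CO1 had 371548, 367036 and 333075, and by library totals it was lowest in Nc3. Of 50 assembly factors, which help to build the complexes and are not part of them, 47 were detected. Of the 48 assembly factors abundant enough for the chi-square test, 32 were lowest in Nc1, and the median over those detected was -0.32. The 14 enzymes of the tricarboxylic acid cycle, which feed the chain, were split: 7 were lowest and 6 highest in Nc1, with a median of -0.04. Cytochrome c, which carries electrons from complex III to IV, moved little in FPKM, with CYCS at 95.7, 92.6 and 88.9. CYCS had 7592, 6404 and 6647 counts, so by library totals Nc1 stood further above the others. CYC1, the cytochrome of complex III, was lowest in Nc1, at 225, 373 and 335 FPKM. The counts of both genes varied beyond counting noise.

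Of 11 regulators of mitochondrial gene expression, 10 were detected. With TMM scaling 6 of these were highest in Nc1, against 42.3% of all genes tested. The regulators thus showed no clear direction of their own. The coactivator PPARGC1A missed detection, with 10, 11 and 5 counts. NRF1, a factor known to bind promoters of respiratory chain genes, stood at 3.65, 4.0 and 3.71 FPKM. GABPA, the ETS factor known for the same role, stood at 3.32, 2.36 and 2.37 FPKM. YY1 had 12.4, 9.41 and 10.3 FPKM, and ESRRA, a nuclear receptor, was the highest at 43.4, 65.5 and 63.1 FPKM.

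The promoters of the members were searched on both strands for short cores of motifs. The window ran from 250 bases before to 50 after the start of each gene in RefSeq (GRCh38.p14). By Ensembl identifier, or else by symbol, 68 of the 90 members matched a promoter, 62 of them detected. The NRF1 core GCGCATGCG stood in 10 of the 62 (16.1%), against 3.85% of 9049 promoters of detected protein-coding genes and 2.10% of all 27305 promoters. The YY1 core AAGATGGCG stood in 11.3% of the 62 against 4.21% of the 9049, the ETS core CCGGAAGT in 14.5% against 9.47%, and the GC box GGGCGG in 61.3% against 71.8%. The median GC content of these windows was 60.7% in detected members and 65.7% in the 9049. A match is a description of the sequence and no evidence of binding.

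The 10 genes with the NRF1 core were NDUFA8, NDUFB4, NDUFS6, NDUFS7, SDHD, COX6A1, ATP5F1C, ATP5MC2, ATP5ME and ATP5PF, none of them in complex III. Windows of 60 bases upstream of the start are shown for NDUFS7, with one of the largest differences of Nc1 (-0.90), for ATP5F1C, with almost none, and for the genes with it in complexes II and IV. They are written 5′ to 3′ on the strand of the gene, and capitals mark the core or its reverse complement.
NDUFS7: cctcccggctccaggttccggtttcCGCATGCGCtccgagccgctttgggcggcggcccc
ATP5F1C: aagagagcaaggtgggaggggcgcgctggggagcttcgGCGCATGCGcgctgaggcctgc
SDHD: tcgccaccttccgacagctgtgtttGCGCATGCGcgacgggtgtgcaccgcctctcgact
COX6A1: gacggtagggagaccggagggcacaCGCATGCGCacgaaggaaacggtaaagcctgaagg
The windows lie at chr19:1383808-1383867, chr10:7788117-7788176, chr11:112086738-112086797 and chr12:120437869-120437928, all on the plus strand. Of the genes shown, COX6A1 and NDUFS7 were called by the chi-square test with TMM scaling, and ATP5F1C and SDHD were not. Whether the core has a part in these differences was not tested.

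The low levels of some essential subunits went with overlap by other annotated genes. In GENCODE release 29, at least 50% of the coding bases of 14 members lie in exons of another gene on the same strand; this share was chosen after the levels had been seen, and the readthrough genes were set aside. The 14 were NDUFA7, NDUFA9, NDUFA11, NDUFA13, NDUFB8, NDUFC2, NDUFV2, SDHD, UQCR11, COX6A1, COX6B2, COX8A, ATP5MG and ATP5PO. Of these 14, 12 were detected, against 67 of the 73 with no such overlap. Their median was 8.88 FPKM, against 57.6 FPKM for those 73. Per kilobase of the reference transcript the medians were 29.8 and 144.

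For NDUFV2, NDUFA7, COX6B2 and UQCR11 the overlap covered every coding base, and for NDUFA13 98.4% of them. NDUFA13 had 28, 20 and 28 counts, and UQCR11 had 473, 670 and 607. ATP5PO, the stalk subunit that confers oligomycin sensitivity, had 69.0% of its coding bases covered and 436, 470 and 447 counts, or 7.34, 9.08 and 7.99 FPKM. NDUFA9 had 85.1% covered and stood at 2.42 ± 0.212 FPKM (SD, n = 3).

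The overlapping genes themselves had almost no counts. AP005263.1, a processed transcript over NDUFV2, had 0 counts in each library, as had AC010323.1 over NDUFA7 and AP000311.1 over ATP5PO. AC011448.1 over NDUFA13 had 3, 2 and 0. Overlap did not always go with a low level: COX8A, with 55.1% covered, was the highest of the family with the table's length, and COX6A1, with 53.5%, stood at 142 ± 37.6 FPKM (SD, n = 3). Among protein-coding genes other than the members, 35.6% of the 1106 with at least 50% overlap were detected, against 58.8% of the 17541 with none. The sources used here do not say how reads in exons shared by genes were counted, and the part of overlap in these levels was not tested. The levels of these 14 genes are therefore uncertain, with less reason for ATP5MG. AP001267.5, the gene over ATP5MG on the same strand, is not among the genes of the deposited tables. A low count for NDUFV2 or NDUFA7 does not show that the cells lacked the transcript.

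**Figure D5:**
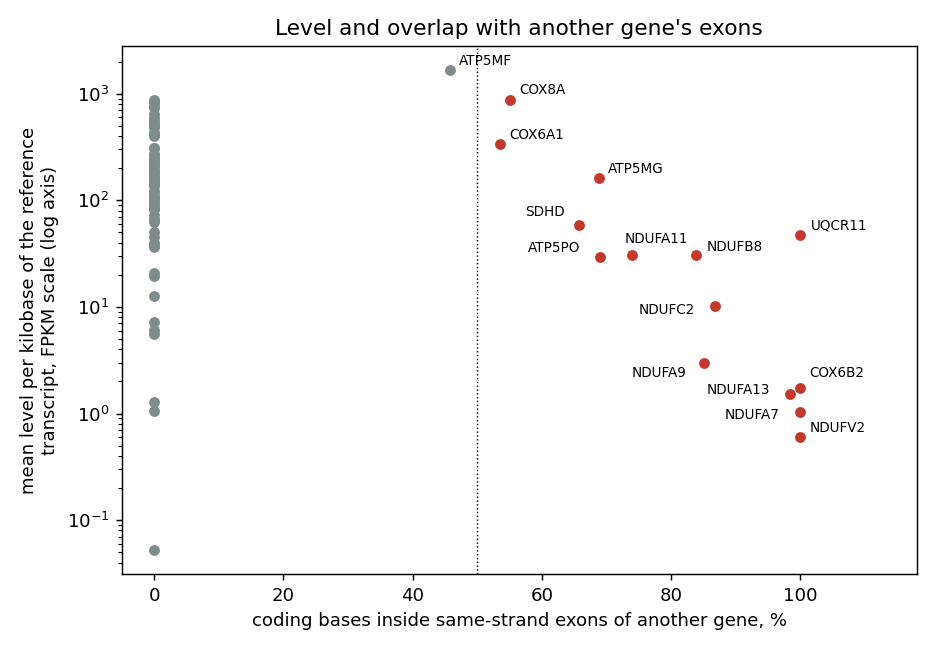
Mean level per kilobase of the reference transcript (FPKM scale, log axis) against the percentage of coding bases that lie in same-strand exons of another gene, for members with at least 1 count and without the readthrough genes. Red points have at least 50% overlap (dotted line); those at the right edge are the lowest of them, with UQCR11 above the rest, and COX8A and COX6A1 near 55% stand high.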

How the data were processed

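The authors deposited a table of raw counts per gene and a table of FPKM. Per the submitters' processing notes, FastQC, HISAT2, StringTie and the build GRCh38 were used; the sources used here name no versions, annotation or strand setting, and no rule for shared reads. On the columns used, each deposited FPKM equalled the count divided by the table's gene length and a constant of the library, within a relative difference of 4.66e-14. The table's gene length (unit: other, bases), as deposited, equalled the union of exons in GENCODE release 29 for 98.2% of genes and 87 of the 90 members. The reference transcript was the protein-coding one with the best APPRIS level, then the longest coding sequence, then the best support level.

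Columns Nc1, Nc2 and Nc3 were read as control. The other 6 library columns of each table, 12 in both, match no sample's labels and were not used, so the 3 planned comparisons between groups and their 15 other settings were not run. TMM factors were computed in edgeR 4.0.16 and size factors in DESeq2 1.42.0, under R 4.3.3, and no edgeR or DESeq2 test was run. The chi-square test covered genes averaging 10 counts or more and was tested on simulated data. Other steps used Python 3.11.15, NumPy 2.4.6, SciPy 1.17.1 and pandas 2.3.3. Members, lists and motifs were chosen with earlier results of these data known. By the rule for named genes any member may be named; in full are the highest and lowest detected member of each complex, those not detected, isoform pairs and core subunits. Markers of fibroblasts (COL1A1, COL1A2, COL3A1, DCN) summed to 50, 42 and 69 counts and those of melanocytes (MLANA, PMEL, TYR) to 14, 19 and 23. Of the assembly factors, 4 were matched by identifier under older symbols. For 1 member no values are reported here in the text or by name in the figures, while counts and medians cover all members.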

Additional observations from a re-analysis of the deposited data

How the results depend on the processing

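No paired analysis was possible because every library analysed is read as control, and pairs need a further group. The number of detected members (80) was 82 with at least 1 count in each library, 76 with at least 1 FPKM, and 80 without any 1 library. The 73 members that varied beyond counting noise were 72 with library totals, 73 with DESeq2 size factors or other minimum counts, and between 56 and 73 without 1 library. Members lowest in Nc1 (68) were 61 and those highest in Nc2 (68) were 60 with library totals, and 68 each with DESeq2 size factors, settings added after seeing the data; library totals moved the median difference of Nc1 over all genes tested to 0.17 and that of the members to -0.37. The level of every member moved by no more than 1 SD when FPKM were rescaled to library totals. The complex medians moved with the unit by construction: as TPM they were 95.1, 72.5, 133, 352 and 167 for complexes I to V, per kilobase of the reference transcript 106, 73.4, 72.5, 422 and 186, and per coding kilobase 168, 201, 261, 1116.9 and 425. Without 1 library they ran from 33.5 to 37.7 in I, 27.1 to 27.7 in II, 46.0 to 54.0 in III, 119.5 to 151 in IV and 60.8 to 66.7 in V. The depth of 16354678 to 16989712 counts limits genes such as NDUFA4L2 and COX6B2.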

Other observations

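Of 7 assembly factor entries with at least 50% of coding bases in same-strand exons of another gene, 4 were detected, and of 43 with none, 42 were. SCO2, a copper chaperone of complex IV, is listed under 2 identifiers, each overlapped over its whole coding sequence; one had 14, 10 and 9 counts and the other 3, 10 and 10. FMC1, which helps to assemble complex V, had 6, 5 and 6 counts with 76.4% overlapped. COX20, a chaperone of complex IV, had 5, 5 and 4 counts with no overlap. COX15, which makes heme A, had 82.8% overlapped and yet 1023, 748 and 853 counts. These values were picked after they had been seen.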
